A study of Mus musculus with 21 samples.

Results

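The 45 chromatin regions described here are those whose accessibility differed between Dlx1/2 knockout (KO) and wild-type (WT) embryos in FTpos cells of the ventricular zone (VZ) of the mouse ganglionic eminences. All regions of the authors' 2 deposited FTpos lists were taken, 12 KO-higher and 33 WT-higher, of 825 differing regions in the whole series. The other 780 came from FTneg cells, which the study assigned to the subventricular and mantle zones. Accessibility was measured by ATAC-seq, in which a transposase inserts sequencing adapters into open DNA. The embryos were of strain CD1 and embryonic stage E12.5, with 3 Dlx1/2KO and 3 WT embryos in each fraction, all from tissue labelled basal ganglia. The labels number the embryos of each genotype alike in FTpos and FTneg, so the fractions appear to come from the same embryos. Each list combines the 3 embryos of each genotype, so no value per embryo can be given and no list has a replicate. Peaks of 6 subunits of the NuRD complex came from chromatin immunoprecipitation (ChIP-seq) of unsorted CD1 basal ganglia at stage E13.5, with 1 library per subunit and 3 input libraries. No ChIP sample of the series names the KO genotype in its title, so no KO ChIP list was used here.

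DLX1 and DLX2 are homeodomain transcription factors that start the programme of GABAergic neurons in the ventral forebrain. The VZ holds the dividing progenitors that line the ventricle, and their daughters move outward through the subventricular zone into the mantle. NuRD joins a nucleosome remodelling ATPase (CHD4), histone deacetylases (HDAC1 and HDAC2), a methyl-CpG-binding family protein (MBD3) and histone-binding proteins (RBBP4 and RBBP7), and is known for lowering the activity of enhancers.

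The name inside a ChIP list did not match its sample label for 3 subunits. The sample labelled CHD4 has a list named HDAC1, that labelled HDAC1 a list named HDAC2, and that labelled HDAC2 a list named CHD4. The inputs that the labels pair with the subunits and the run prefixes in the list names fit together under the carried names, and not under the sample labels. Lists are still named below by the sample label. Under the carried names, the values given for CHD4, HDAC1 and HDAC2 would be those of HDAC1, HDAC2 and CHD4, in that order. Results for any subunit do not depend on that naming, and single-list values for CHD4, HDAC1 and HDAC2 do. The depth behind every list is unknown. Positions are on mm10, counted from 1. The strength of an accessibility region is the authors' area under the curve of −log10 p along the region, kept at 500 or more, and its summit value is the highest −log10 p within it. Both measure evidence for a difference and neither is a fold change. Each region is named by the curated protein-coding gene nearest to its summit, which gives a position and not a target.

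The check of the labels came first. The targeted locus was taken as the span chr2:71528113-71546754 that holds Dlx1 and Dlx2. In FTpos cells, 5 of the 33 WT-higher regions lay across it, and none of the 12 KO-higher regions did. Their areas were 17969, 7152, 6293, 4533 and 2239, and all 5 overlapped a WT-higher region in FTneg cells. The strongest, chr2:71537782-71543416, covered part of the interval between the genes. Signal over targeted DNA depends on the allele itself, and these 5 regions were set aside. That left 12 KO-higher and 28 WT-higher regions, with a KO-higher share of 30% (95% Wilson interval 18.1 to 45.4, which covers counting error over regions only).

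In FTpos cells, chromatin that was more open in KO embryos mostly did not overlap NuRD peaks and was more open in KO FTneg cells too. Chromatin that was more open in WT embryos lay at NuRD peaks, usually of several subunits at once. At least 1 subunit peak overlapped 1 of 12 KO-higher regions, against 24 of 28 WT-higher regions. The same share was 71.3% of the 727 KO-higher regions and 68.8% of the 48 WT-higher regions in FTneg cells outside the targeted locus. Counting peaks within 1 kb of a region, an alternative chosen after seeing the data, raised the KO-higher FTpos count to 5 of 12. The WT-higher FTpos count then stayed at 24 of 28. The KO-higher regions included 2 beyond Dlx2, a pair at the histone genes H2bc7 and H2ac7 and the promoter of Pgk1. The WT-higher regions included places beside Dlx1, between Dlx6 and Dlx5, and within 200 kb of Slc32a1, which encodes the vesicular GABA transporter.

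**Figure D1:**
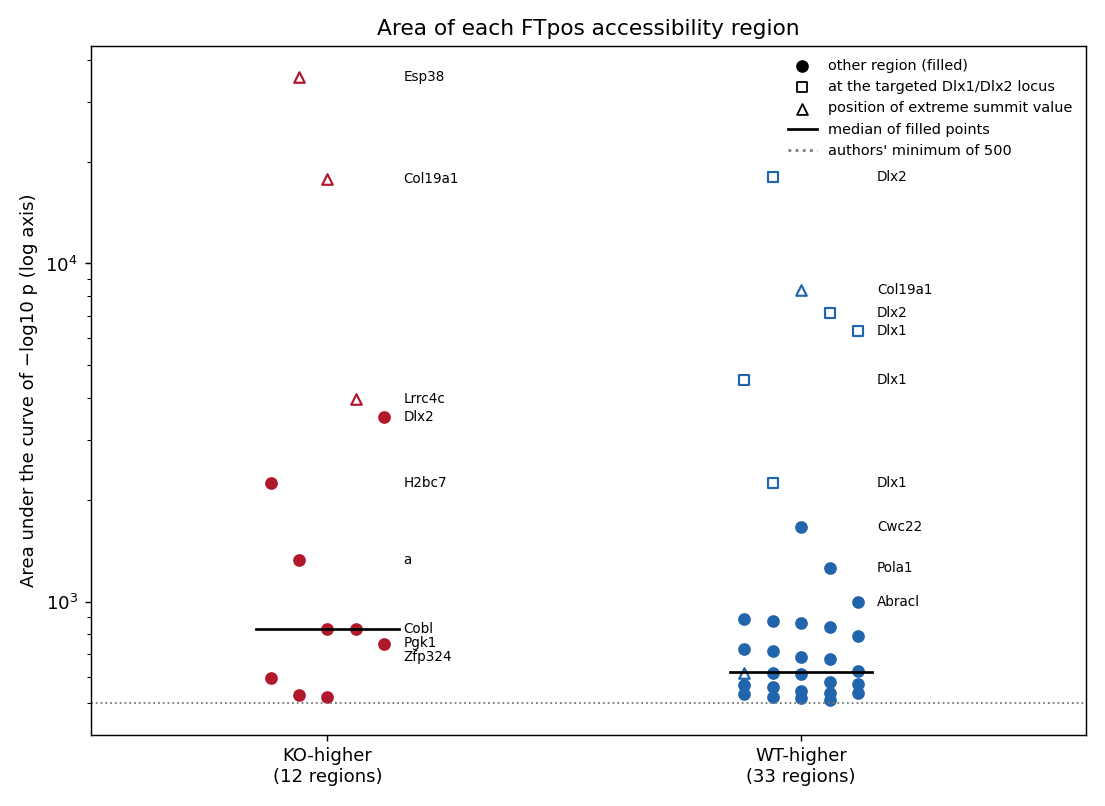
Area under the curve of −log10 p (log axis) of each of the 12 KO-higher and 33 WT-higher FTpos regions, with squares at the targeted locus, triangles at positions of extreme summit value and lines at the medians of the filled points. Among filled points the KO-higher areas ran up to 3504 and the WT-higher areas up to 1664.

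Regions at 3 positions had summit values over 30 in at least 1 accessibility list and were kept apart. Among the KO-higher regions these were chr17:39842994-39848804 (area 35562) over the ribosomal RNA pseudogene Rn18s-rs5, chr1:24612505-24613237 (area 17741) over the pseudogene Gm10222, and chr2:98667012-98667350 (area 3968), 1035501 bp from Lrrc4c. The first 2 positions also carried a WT-higher FTpos region, chr17:39845192-39845489 (area 616) and chr1:24612579-24612881 (area 8334). Both directions were therefore called at the same place in the same cells. All 3 positions held the ranks 1 to 3 by area among the KO-higher FTneg regions. None overlapped a ChIP peak, and the names of the ChIP lists say that blacklisted positions had been removed from them, while those of the accessibility lists do not. Without these positions, 9 KO-higher regions had areas of 523 to 3504 (median 827) and 26 WT-higher regions had areas of 511 to 1664 (median 618). Median widths were 621 bp in the KO-higher and 664.5 bp in the WT-higher regions, and median summit values were 5.75 and 5.17 in that order. The weakest members, at areas of 523 and 511, stood just above the authors' minimum, and regions below it were not in the lists.

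The strongest KO-higher region apart from those positions lay 32182 bp beyond Dlx2, on the side of that gene's start. It covered 3060 bp at chr2:71576890-71579949, with an area of 3504 and a summit value of 5.84. A KO-higher region of area 1099 overlapped it in FTneg cells, where it ranked 120 of 727. Farther out on the same side, chr2:71636474-71636876 (area 530, summit value 5.54) lay 90023 bp from Dlx2. This was the only KO-higher FTpos region with no KO-higher counterpart in FTneg cells. Neither region overlapped a NuRD peak, and the nearest peaks were 849 and 6310 bp away. On the other side of the locus the direction was the opposite. The WT-higher region chr2:71517349-71518375 (area 725, summit value 5.43) lay within Metap1d, which encodes a mitochondrial aminopeptidase, and 12081 bp from the start of Dlx1. It held peaks of 5 subunits, with fold enrichments of 17.4 for RBBP4, 11.4 for HDAC1, 9.39 for MBD3, 6.21 for HDAC2 and 6.07 for CHD4. The stretch upstream of Dlx1 is known to hold a forebrain enhancer in mouse. All 3 regions flank the targeted DNA, and a change through loss of DLX1 and DLX2 protein cannot be told apart from a change through the altered allele itself.

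**Figure D2:**
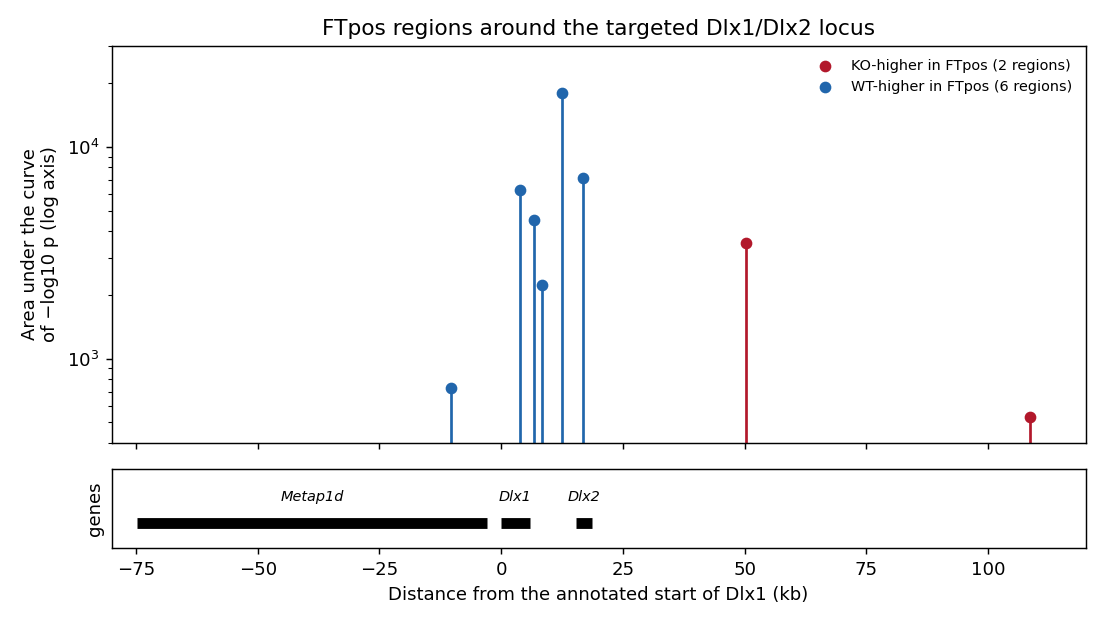
Area (log axis) of the 2 KO-higher and 6 WT-higher FTpos regions around the targeted locus, against distance from the annotated start of Dlx1 in kb, with genes drawn below. The WT-higher regions lie across and before the 2 genes and the KO-higher regions lie beyond Dlx2.

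Further KO-higher regions lay at histone genes and at the promoter of a gene of glycolysis. H2bc7 and H2ac7 encode core histones H2B and H2A that are made in S phase, and the genes are transcribed away from each other. The region chr13:23573175-23574598 (area 2242, summit value 7.18) covered H2bc7 whole and the start of H2ac7. The next region, chr13:23574740-23575301 (area 596, summit value 5.21), began 141 bp on and overlapped no promoter window, with its summit 307 bp from H2ac7 and 541 bp from the histone H3 gene H3c4. A single KO-higher FTneg region (area 1631, rank 32 of 727) overlapped both. On the X chromosome, chrX:106186762-106187257 (area 827, summit value 5.24) spanned the start of Pgk1, the phosphoglycerate kinase of glycolysis, and its FTneg counterpart had an area of 951. None of these 3 regions overlapped a NuRD peak, yet peaks stood 729, 26 and 8 bp from their edges, in the order given. Over all genes, 53.7% of 20488 curated promoter windows overlapped a NuRD peak.

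The promoter windows of these genes show what kind of DNA the regions cover (RefSeq, GRCm38.p6, 250 bases before to 50 after the start). Capitals mark CCAAT, the letters of the NF-Y box, and TATAAA, those of the TATA box, on either strand. Both windows lay wholly inside their regions.
H2ac7, chr13:23574131-23574430, plus strand: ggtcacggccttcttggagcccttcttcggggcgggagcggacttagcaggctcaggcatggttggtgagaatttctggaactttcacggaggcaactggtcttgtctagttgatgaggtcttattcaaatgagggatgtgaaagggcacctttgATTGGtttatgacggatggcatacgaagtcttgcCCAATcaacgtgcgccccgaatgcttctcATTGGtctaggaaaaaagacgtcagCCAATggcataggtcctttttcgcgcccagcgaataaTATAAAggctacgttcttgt
Pgk1, chrX:106186850-106187149, plus strand: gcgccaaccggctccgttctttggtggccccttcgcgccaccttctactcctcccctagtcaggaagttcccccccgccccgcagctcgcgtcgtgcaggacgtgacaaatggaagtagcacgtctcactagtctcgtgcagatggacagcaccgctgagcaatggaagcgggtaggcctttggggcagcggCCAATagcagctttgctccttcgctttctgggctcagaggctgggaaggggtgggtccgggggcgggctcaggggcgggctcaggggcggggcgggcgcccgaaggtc

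CCAAT stood 4 times in the H2ac7 window, which lies mostly within that of H2bc7, and once in the Pgk1 window. TATAAA stood once in the H2ac7 window and not in that of Pgk1. Of 32544 distinct promoter windows of this length, 37.4% held CCAAT and 13.6% held TATAAA, so a single match is common. Neither TAATTA, the core of homeodomain sites, nor the E-box CAGCTG, nor ACAAAG, the core of SOX and TCF sites, was found in either window.

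The only KO-higher region with a NuRD peak was chr7:12949430-12950050 (area 751, summit value 6.46), over the start of the long noncoding RNA Gm29638 and 16223 bp from Zfp324, a zinc finger gene. Fold enrichments there were 7.77 for RBBP4, 5.08 for RBBP7 and 4.22 for HDAC1. Its FTneg counterpart, of area 2345, ranked 7 of 727. The remaining 3 KO-higher regions lay away from promoters. One of them, chr2:155019067-155020600 (area 1327, summit value 5.75), lay inside a, the nonagouti gene of coat colour. Another, chr11:12374996-12375300 (area 829, summit value 6.23), lay inside Cobl, which encodes an actin nucleator. The weakest, chr5:74716223-74717035 (area 523, summit value 4.43), lay 13599 bp from Lnx1, which encodes a ubiquitin ligase for Numb, over the noncoding RNA Gm15984. The nearest NuRD peaks to these 3 were 53226, 1316 and 75346 bp away, in the order given.

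By nearest gene, 7.14% of WT-higher regions (2 of 28) fell to a list of GABAergic lineage genes. In WT-higher FTneg regions it was 22.9%. Those 2, nearest to Dlx6 and Sox11, both held NuRD peaks, though the second lay 403635 bp from Sox11. The region chr6:6869166-6869910 (area 886, summit value 4.91) lay between Dlx6 and Dlx5, 1771 bp from Dlx6 and 8060 bp from Dlx5, 2 related homeodomain genes that act after Dlx1 and Dlx2. The interval between them is known for forebrain enhancers. Peaks of 5 subunits overlapped it, with fold enrichments of 10.1 for RBBP4, 8.58 for CHD4, 7.32 for HDAC1, 5.43 for MBD3 and 4.47 for HDAC2. Their summits fell within 66 bp of the accessibility summit, and WT-higher FTneg chromatin (area 933) overlapped the region.

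The start of the noncoding RNA Dlx6os1 lay inside that region, and its promoter window (RefSeq, GRCm38.p6) is shown because it is the stretch of this enhancer-bearing interval with sequence at hand. Capitals mark the homeodomain core TAATTA, the E-box letters CAGCTG, the SOX and TCF core ACAAAG and the NF-Y letters CCAAT on either strand.
Dlx6os1, chr6:6869484-6869783, minus strand: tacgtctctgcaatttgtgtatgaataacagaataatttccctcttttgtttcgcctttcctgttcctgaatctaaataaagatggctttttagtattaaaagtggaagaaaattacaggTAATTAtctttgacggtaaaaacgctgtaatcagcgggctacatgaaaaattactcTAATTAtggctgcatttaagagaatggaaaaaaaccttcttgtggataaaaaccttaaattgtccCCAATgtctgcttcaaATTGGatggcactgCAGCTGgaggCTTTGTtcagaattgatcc

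TAATTA stood 2 times in the Dlx6os1 window, both before the start, while 5.29% of the 32544 promoter windows held it at all. CAGCTG and ACAAAG stood once each, against 16.4% and 18.7% of windows that held them. A match of letters is a description and not evidence that a factor bound.

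Within the gene Pola1, the catalytic subunit of DNA polymerase alpha, chrX:93409117-93410267 (area 1256, summit value 5.30) was the second strongest WT-higher region outside the locus and the extreme positions. Fold enrichments were 15.3 for RBBP4, 12.01 for MBD3, 7.58 for CHD4, 6.72 for HDAC1 and 5.36 for HDAC2. The region chr12:26930130-26930780 (area 840, summit value 5.64) was nearest to Sox11, a transcription factor of young neurons, but 403635 bp from it. It too held peaks of 5 subunits, with 11.1 for RBBP4 and 8.79 for MBD3, and overlapped a WT-higher FTneg region of area 980. In contrast, chr2:158546567-158547230 (area 864, summit value 6.27), inside the GTPase regulator gene Arhgap40 and 60352 bp from Slc32a1, held no NuRD peak, and the nearest stood 8922 bp away. It overlapped a WT-higher FTneg region of area 646. Of the regions nearest to Dlx6, Pola1, Sox11 and Arhgap40, only the last lacked a peak, and the others held peaks of 5 subunits each.

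Zfp608, a zinc finger gene, was nearest to 2 WT-higher regions. The first, chr18:55040767-55041721 (area 792), was 48566 bp from the gene and held peaks of 5 subunits, with 12.2 for RBBP4. The second, chr18:55485611-55486334 (area 688), was 493202 bp from the gene and held peaks of all 6, with fold enrichments of 4.01 to 7.80.

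Other WT-higher regions lay inside or nearest to genes of membrane proteins, some of them far away. Inside Plxna2, a semaphorin receptor, chr1:194637288-194637900 (area 517) held peaks of 5 subunits, with 11.3 for RBBP4. The region nearest to Flrt2, an adhesion and guidance protein, was chr12:95119040-95119416 (area 538), 572885 bp from the gene. It held peaks of all 6 subunits, with 10.7 for RBBP4, although their summits stood 404 to 593 bp from the accessibility summit. Inside Gpm6a, a neuronal membrane glycoprotein, chr8:54975470-54976204 (area 613) held 4, with 7.94 for RBBP7. Inside Cacna1c, a calcium channel gene, chr6:118845788-118846226 (area 558) held RBBP4 alone, at 3.96. The integrin gene Itga1 was nearest to 2 regions 97698 bp apart. They were chr13:115575298-115575862 (area 523, 5 subunits, RBBP4 at 6.005) and chr13:115673561-115674170 (area 511, 3 subunits, RBBP7 at 5.38).

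The highest fold enrichment at any of the 28 regions was 20.2, for RBBP4 at chr5:83593002-83593459 (area 566), in a gene-poor stretch 238129 bp from Tecrl and 461437 bp from the ephrin receptor gene Epha5. CHD4 stood at 10.6 and MBD3 at 8.28 there, and the summits of 5 subunits lay between -119 and -10 bp from the accessibility summit. Regions with peaks of 5 subunits also lay inside Abracl (chr10:18020204-18020754, area 998, RBBP4 at 8.70), inside the ankyrin repeat gene Asb4 (chr6:5404518-5405285, area 713, RBBP4 at 5.52) and inside the dynein chain gene Dync1i2 (chr2:71244688-71245758, area 534, RBBP4 at 11.3). The region nearest to Mrm1, a mitochondrial RNA methyltransferase gene (chr11:84708057-84708809, area 569), held 4, with CHD4 at 7.24.

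Fewer subunits were found at 6 further places. Peaks of 3 overlapped chr17:65742411-65743150 inside the vesicle traffic gene Rab31 (area 623), chr2:108753547-108754317 nearest to Mettl15 (area 542) and chr11:106639175-106639678 near Pecam1, an adhesion molecule of endothelium (area 610). RBBP4 and RBBP7 peaks overlapped chr1:161379807-161380324 near the cytokine gene Tnfsf4 (area 580). RBBP4 alone overlapped chr2:67873459-67873867 inside the galactosyltransferase gene B3galt1 (area 537). No peak overlapped chr2:127182594-127183489 near 1810024B03Rik (area 677), and the nearest stood 24495 bp away.

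**Figure D3:**
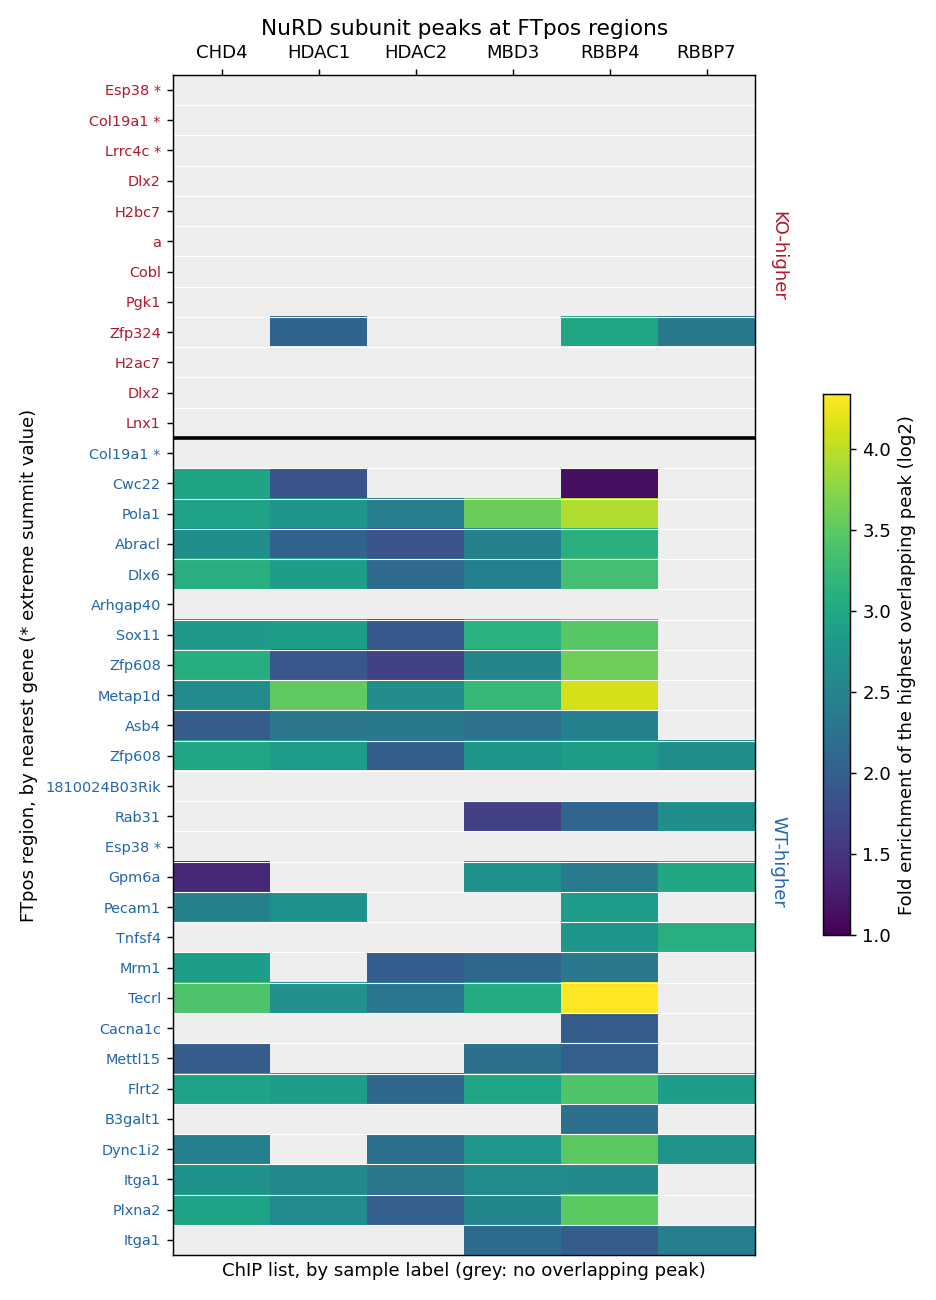
Fold enrichment (log2) of the highest NuRD subunit peak at each FTpos region outside the targeted locus, KO-higher regions above and WT-higher regions below the line, ordered by area, with grey for no peak and 1 WT-higher region not drawn. KO-higher rows are grey apart from 3 cells at Zfp324, and most WT-higher rows hold an RBBP4 peak.

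KO-higher FTneg regions overlapped 3 of the 28 WT-higher FTpos regions, 2 of them at the extreme positions. The other was the strongest WT-higher region outside the locus and those positions, chr2:77945894-77946518 (area 1664, summit value 11.8), and spanned the start of Cwc22, a splicing factor gene. An FTneg region of area 1403 and summit value 12.1 at the same place, chr2:77946108-77946509, was KO-higher. By these calls, WT chromatin was more open there in the VZ, and KO chromatin in the outer zones. Both summit values were the highest of their lists outside the locus and the extreme positions, 2 of which also carried opposite calls. What the opposite calls at Cwc22 reflect was not tested. The difference between the fractions was not tested, since the lists give no values per embryo. Fold enrichments were 7.72 for CHD4, 3.64 for HDAC1 and 2.199 for RBBP4, and no peak of the whole RBBP4 list had a lower fold than the last. The authors' −log10 q of the CHD4 peak was 143, against at most 30.9 at the other WT-higher regions outside the locus. What this reflects was not tested. The promoter window overlapped the region over 212 bp and is shown because 2 opposite calls meet at it (RefSeq, GRCm38.p6). Capitals mark ACAAAG on either strand, found 2 times.
Cwc22, chr2:77946307-77946606, minus strand: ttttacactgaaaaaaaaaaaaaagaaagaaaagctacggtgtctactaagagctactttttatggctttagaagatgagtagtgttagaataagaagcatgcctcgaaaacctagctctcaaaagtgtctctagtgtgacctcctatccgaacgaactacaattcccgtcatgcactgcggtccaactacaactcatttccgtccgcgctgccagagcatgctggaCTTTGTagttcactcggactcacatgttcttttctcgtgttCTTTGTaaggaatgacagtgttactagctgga

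NuRD occupancy separated the KO-higher and WT-higher regions. A subunit peak overlapped 8.33% of the KO-higher regions (1 of 12, 95% interval 1.49 to 35.4) and 85.7% of the WT-higher regions (24 of 28, 68.5 to 94.3). The odds ratio was 0.0152, with an adjusted p of 1.24e-05 (two-sided Fisher's exact test, Benjamini-Hochberg over 2 tests). This test compares 2 lists of regions and not embryos. It counts every region as independent, although the 2 histone regions lay 141 bp apart. Blacklisted positions had been removed from the ChIP lists by their names, and whether the extreme positions were among them is unknown. Without the extreme positions the shares were 11.1% (1 of 9) and 92.3% (24 of 26). The odds ratio was then 0.0104, with an adjusted p of 3.2e-05 by the same exact test. Counting peaks within 1 kb of a region, an alternative chosen after seeing the data, moved the KO-higher share to 41.7% (5 of 12) and left the WT-higher share at 24 of 28, with an odds ratio of 0.119 and an adjusted p of 0.0155. With areas of at least 1000 alone, which left 6 KO-higher and 3 WT-higher regions, 4 of them at extreme positions, the adjusted p was 0.167 by the same exact test.

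**Figure D4:**
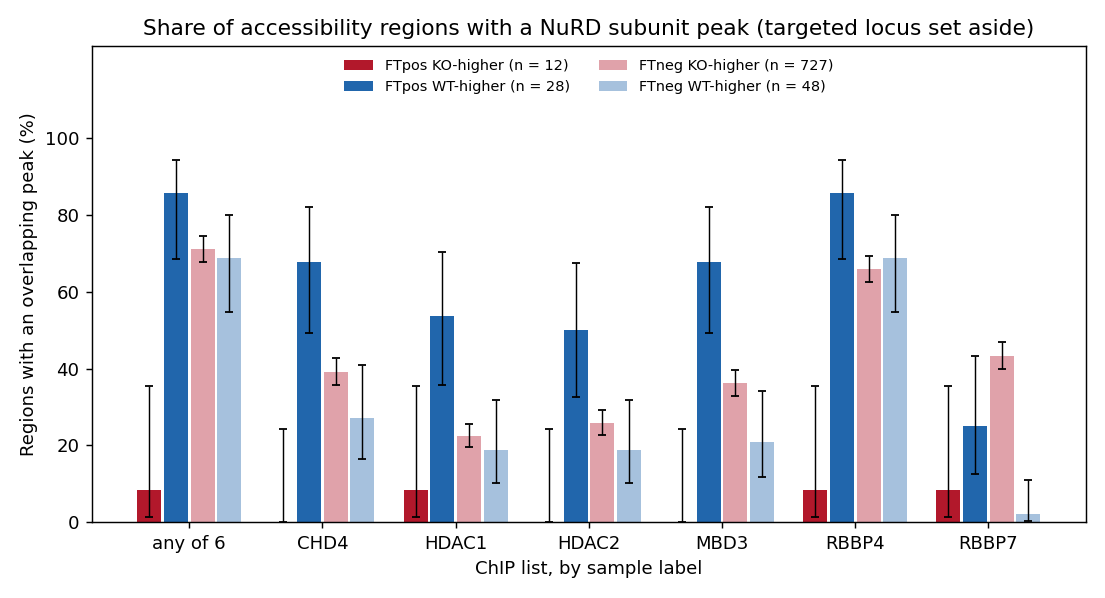
Share of accessibility regions outside the targeted locus that overlapped a NuRD subunit peak, for any of 6 lists and for each list, with 95% Wilson intervals as error bars. FTpos KO-higher bars stand at 8.33% or 0, and FTpos WT-higher bars reach 85.7% for any list and for RBBP4.

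WT-higher FTpos regions held more subunits at one place than WT-higher FTneg regions, by a cut-off chosen after the data had been seen. For a peak of any subunit the shares were 24 of 28 in FTpos and 33 of 48 in FTneg, with an odds ratio of 2.73 and an adjusted p of 0.169 (two-sided Fisher's exact test), which does not show that they were alike. Without the extreme positions the odds ratio was 5.46 (adjusted p = 0.0232, same exact test), and without the RBBP4 list it was 6.11 (adjusted p = 0.000759, same exact test). With peaks of at least 3 subunits required, an alternative added after the data had been seen, the shares were 75.0% in FTpos (21 of 28) and 22.9% in FTneg (11 of 48). The odds ratio was then 10.1, with an adjusted p of 2.39e-05 by the same test. Peaks of at least 5 subunits overlapped 13 of 28 FTpos and 5 of 48 FTneg regions. RBBP4 was present at all 24 WT-higher FTpos regions with a peak, and the fractions differed least for it, at 85.7% in FTpos and 68.8% in FTneg. CHD4 peaks overlapped 67.9% of FTpos and 27.1% of FTneg regions, and MBD3 peaks 67.9% and 20.8% in that order. HDAC1 stood at 53.6% in FTpos and 18.8% in FTneg, HDAC2 at 50% and 18.8%, and RBBP7 at 25.0% and 2.08%. The contrasts for single lists were not tested. Among the 727 KO-higher FTneg regions, 41.7% held peaks of at least 3 subunits and 21.5% of at least 5. All 6 overlapped 13.1% of those, against 7.14% of WT-higher FTpos regions, and RBBP7 overlapped 43.3% of them.

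The peaks at WT-higher FTpos regions tended to stand above the middle of their own lists. No such comparison was made for peaks at FTneg regions, so whether this is particular to these regions was not tested. Of the 24 RBBP4 peaks, 18 exceeded the list's median fold enrichment of 4.85, and their own median was 6.93. For MBD3 it was 16 of 19, with a median of 5.77 at the regions and 4.61 in the list. For CHD4 it was 13 of 19 (6.93 and 5.64) and for HDAC1 11 of 15 (6.56 and 5.22). HDAC2 peaks stood nearest to their list's median, at 8 of 14 above it (4.41 and 4.21), and 6 of 7 RBBP7 peaks were above theirs (6.62 and 6.196). Summit distances were measured only for peaks that overlapped a region, which by itself keeps them short. The median distance between the RBBP4 and accessibility summits was 101 bp, and it lay between 122 and 217 bp for the other lists.

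**Figure D5:**
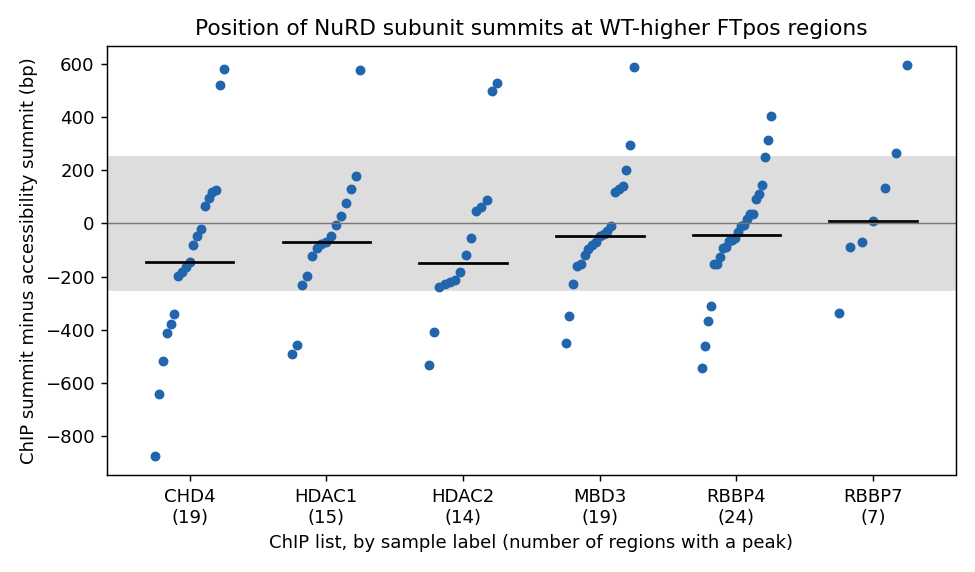
Position of each NuRD subunit summit relative to the accessibility summit at WT-higher FTpos regions outside the targeted locus, in bp, with lines at the medians and grey from 250 bp before to 250 bp after. Inside the grey band lie 18 of 24 summits for RBBP4, 15 of 19 for MBD3 and 12 of 15 for HDAC1. For HDAC2 it is 10 of 14, for CHD4 11 of 19 and for RBBP7 4 of 7.

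The 2 directions also differed in how far they were shared with FTneg cells. KO-higher FTneg regions overlapped 11 of 12 KO-higher FTpos regions (91.7%, 64.6 to 98.5), and no WT-higher FTneg region did. WT-higher FTneg regions overlapped 3 of 28 WT-higher FTpos regions (10.7%, 3.71 to 27.2), those nearest to Sox11, Arhgap40 and Dlx6. The FTneg lists are of very unequal length, 727 KO-higher against 53 WT-higher, so the 2 shares are not on one scale. Outside the extreme positions, 5 more WT-higher FTpos regions lay within 50 kb of a KO-higher FTneg region without overlapping it, and 1 more lay so near a WT-higher one.

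Chromosome 2, which carries the targeted locus, held 4 of 12 KO-higher (33.3%, 13.8 to 60.9) and 7 of 28 WT-higher regions (25.0%, 12.7 to 43.4) even with the locus set aside. Over both directions that was 27.5% of FTpos regions, against 8.53% of KO-higher and 8.33% of WT-higher FTneg regions and 8.30% of the 91480 ChIP peaks. Within 10 Mb of the locus lay 6 of all 40 FTpos regions (15.0%, 7.06 to 29.1), among them those at Cwc22, B3galt1 and Dync1i2. In FTneg cells 2.201% of KO-higher and 2.08% of WT-higher regions lay within that distance. The part of linkage to the targeted allele in these regions was not tested.

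Relative to genes, KO-higher regions lay within 1 kb of a gene end in 3 of 12 cases and WT-higher regions in 1 of 28. The KO-higher cases included the histone pair, whose regions lay 141 bp apart. In FTneg cells, 4.95% of KO-higher and 6.25% of WT-higher regions lay so near a gene end. Inside a gene body were 2 of 12 KO-higher and 12 of 28 WT-higher regions, against 45.9% and 35.4% in FTneg cells. Over 100 kb from any curated gene were 2 of 12 and 9 of 28 in that order, against 24.5% and 25.0% in FTneg cells. Exons and introns could not be told apart from the annotation used. On the X chromosome lay 1 KO-higher and 1 WT-higher FTpos region, and none lay on Y. In FTneg cells 3 KO-higher regions lay on Y, nearest to Eif2s3y, Kdm5d and Uty, and no WT-higher one did. The sex of the embryos is not in the labels, and its part in the X-linked regions at Pgk1 and Pola1 was not tested.

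Few regions of either direction were nearest to genes of the lists examined. Of the Dlx family, Dlx2 was nearest to 2 of 12 KO-higher regions and Dlx6 to 1 of 28 WT-higher regions. Of the GABAergic lineage list, none of the KO-higher and 2 of the WT-higher regions (Dlx6 and Sox11) were nearest to a member. In FTneg cells that list counted 16 of 727 KO-higher and 11 of 48 WT-higher regions. No FTpos region was nearest to a gene of the lists of VZ progenitors, the Notch pathway, cortical glutamatergic neurons, glia, microglia or NuRD subunits. Such regions were rare in FTneg cells too, where 12 of 727 KO-higher regions were nearest to progenitor genes and 8 of 727 to Notch genes. Of the endothelial and mural markers, Pecam1 was nearest to 1 WT-higher FTpos region. ATAC-seq lists hold no RNA levels, so the FTpos label could not be checked against expressed markers of the VZ.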

How the data were processed

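Per the labels, 3 Dlx1/2KO and 3 WT embryos were measured in each of FTpos and FTneg by ATAC-seq, and 6 NuRD subunits by ChIP-seq with 3 inputs. The submitters' processing notes name Genrich, deepTools, MACS2 2.2.7.1, BWA and SAMtools 1.10, and the build mm10. Their settings are not given in the sources used here, and no ATAC-seq protocol is either. Per the labels' protocols, ChIP chromatin was fixed with 5 mM DSG and 1% PFA. The deposited accessibility lists give, as a score, the area beneath the −log10 p curve, and the −log10 p at the summit, both computed by the authors. The deposited ChIP lists give the authors' fold enrichment (a ratio) and −log10 q of each peak. The authors' list names put 1 genotype over the other, which gave the direction. Per the labels, input 1 served HDAC1 and HDAC2, input 2 served MBD3 and CHD4, and input 3 served RBBP7 and RBBP4. Depth is unknown, and no list has a replicate.

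Overlap meant at least 1 bp. Where several peaks of a list overlapped a region, the highest fold was given. Genes were the 21031 of 21900 protein-coding genes with a curated transcript in RefSeq GRCm38.p6. Shares have 95% Wilson intervals, and Fisher's exact test (two-sided, Benjamini-Hochberg adjustment) was applied to 2 contrasts (Python 3.11.15, SciPy 1.17.1, pandas 2.3.3). For a table with an empty cell, 0.5 was added throughout before the odds ratio was taken. Overlap counts were tested on simulated regions with known answers. Every region was named by its nearest gene, with values for each region outside the targeted locus except 1, which is counted but not reported here by itself. The regions and the gene lists were chosen with earlier results of these data known. No genome sequence was used, so sequences come from RefSeq promoter windows.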

Additional observations from a re-analysis of the deposited data

How the results depend on the processing

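No paired analysis was possible because each deposited list combines the embryos of a genotype, and for the same reason no embryo could be left out in turn. Of 73 alternatives, 58 kept the direction and the side of the threshold or stayed within the interval. Keeping only areas of at least 1000 gave a KO-higher share of 66.7%, a NuRD share of 0% of KO-higher and 66.7% of WT-higher regions, and an odds ratio of 0.0462 between them (adjusted p = 0.167, two-sided Fisher's exact test). The same limit turned the odds ratio of FTpos against FTneg WT-higher regions to 0.152, put the FTneg overlap at 100% of KO-higher and 0% of WT-higher regions, and put 44.4% of regions on chromosome 2. It leaves 6 KO-higher and 3 WT-higher FTpos regions, of which 3 KO-higher and 1 WT-higher are extreme positions, and that 1 is the only WT-higher region left without a peak. The odds ratio of FTpos against FTneg WT-higher regions was 5.46 without the extreme positions (adjusted p = 0.0232, Fisher's exact test), 6.11 without RBBP4 (adjusted p = 0.000759, exact test) and 10.1 with at least 3 lists required, the last chosen after seeing the data. FTneg overlap of KO-higher regions was 100% without 100 kb around the locus and without chromosome 2, and that of WT-higher regions was 3.57% with summits within 250 bp. Peaks within 1 kb, added after seeing the data, gave a NuRD share of 41.7% of KO-higher regions. Small lists, 12 and 28 regions, limit every share, and depth is unknown.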
